A study of Rattus norvegicus with 32 samples.

Results

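The comparison described here is that of 5 rat livers taken 18 h after the second of 2 daily ozone exposures with 5 livers taken at the same time after filtered air. The 10 arrays are those whose titles place them in the ozone or air group of that harvest, out of 32 arrays in all, and every group was used as labelled. All animals were male Wistar Kyoto rats, 10 weeks old and 250 to 300 g in weight, that breathed ozone at 1 ppm or filtered air for 6 h per day. The other 22 arrays held livers from the end of exposure on day 2 (5 after ozone, 5 after air) and on day 1 (6 after ozone, 6 after air), and they entered the fit so that all groups shared 1 estimate of the spread. Nothing in the labels says that each array held a different animal, so the p-values measure the spread between these samples.

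Ozone is an oxidant gas that reacts with the lining of the airways. Hepatocytes take up most of the liver and make plasma proteins, lipids and glucose. The interferon pathway is present in nearly all liver cells: interferons bind receptors at the cell surface, and the signal reaches the nucleus, where interferon-stimulated response elements are bound in the promoters of antiviral genes such as the oligoadenylate synthetases and Irf7. Background signalling keeps these genes at a low level in animals without infection.

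Affymetrix rat arrays of 1 colour gave the RNA level of each probe set as an intensity on a linear scale. Of 31139 probe sets, 19063 stood for 1 gene each and were tested, and the brightest one of each gene stood for it, which gave 13438 genes. The array medians at 18 h lay between 153.6 and 159.5 units, and control probes for nonspecific binding read 85.3 to 91.8 units, so genes of about that intensity lie close to background. The number of arrays limits the precision. The hepatocyte markers were bright, with albumin (Alb) at 13163 ± 126 units after ozone and 13121 ± 165 units after air (SD, n = 5 each). Differences are of log2(intensity + 16), ozone minus air, with a standard error (SE), and a gene was called where limma's p, adjusted by the Benjamini-Hochberg method over all 19063 probe sets, was under 0.05.

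Some arrays resembled the arrays of a different group more than those sharing their label. After the mean of all arrays was subtracted, the array labelled air replicate 1 at 18 h correlated at 0.690 with the mean of the ozone arrays of that harvest and at 0.257 with the other air arrays. Air replicate 5 correlated at 0.595 with air on day 1 and at 0.103 with its own group. Air replicate 3 correlated at 0.117 with the ozone arrays and at 0.098 with its own group, and air replicate 2 at 0.171 and 0.189. The 5 ozone arrays correlated with their own group at 0.570 to 0.799. At the end of day 2, air replicate 5 correlated at 0.587 with the ozone arrays and at -0.508 with its own group, and ozone replicate 5 correlated at 0.657 with the ozone arrays of 18 h and at -0.243 with its own. Air replicates 1 and 2 of that harvest lay closest to air on day 1, at 0.647 and 0.592, against -0.028 and 0.278 with their own group, and no fit left these out as a set. The ratio of 3′ to 5′ actin probes was 2.16 to 2.76 on the other arrays at 18 h and 3.50 on ozone replicate 5.

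At 18 h, 120 probe sets passed the threshold, which is 0.629% of those tested. They stood for 96 genes (0.714%), of which 68 rose after ozone (0.506% of genes) and 28 fell (0.208%). The 28 genes that fell moved further than those that rose, with a median log2 difference of -0.46 against 0.28 for the rises. A change of at least 2-fold was seen in 1 gene that rose, the aldose reductase family member Akr1b7, and in 4 that fell, the desaturase Scd, the lipid transporter Mfsd2a, and the interferon-inducible genes Usp18 and Oas1a. Another 25 called genes differed by less than 0.25 on the log2 scale. The volcano plot shows this imbalance, with few large falls and many small rises. Another probe set of the same gene was present for 28 called genes, 40 in all, of which 35 had the same sign, 10 were called in the same direction and 0 in the opposite one. When the arrays were put on the same distribution by quantile normalization the split changed from mostly rises (78 probe sets higher and 42 lower) to an even one (82 higher and 83 lower).

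**Figure D1:**
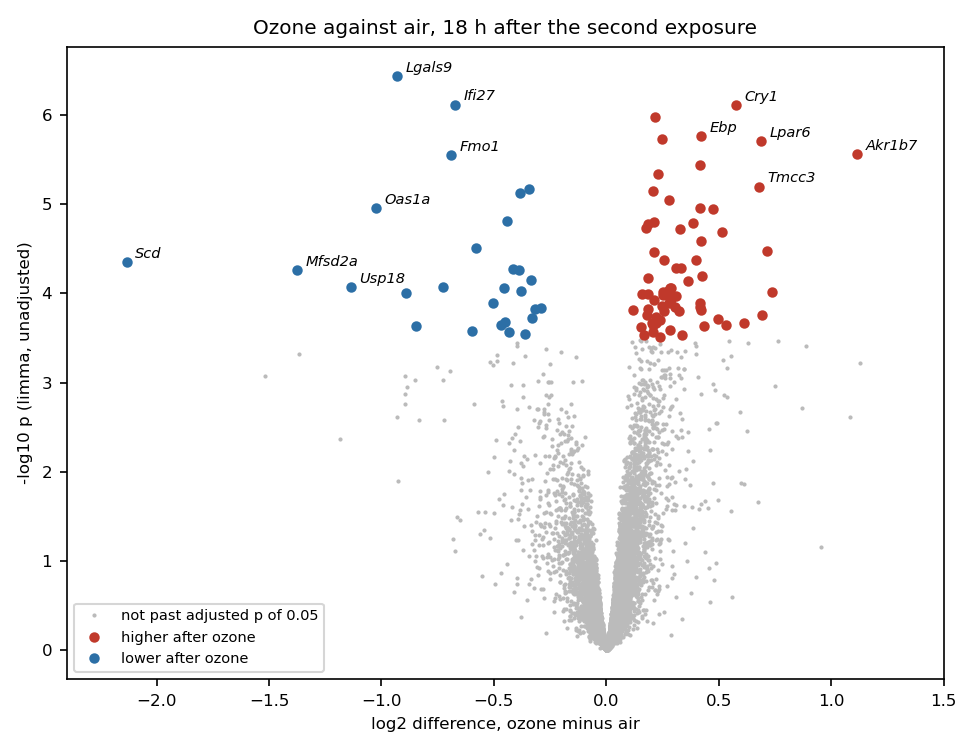
Each point is 1 gene of 13438, with the log2 difference of ozone minus air 18 h after the second exposure on the x axis and the unadjusted -log10 p from limma on the y axis. The 68 genes that rose (red) reach 1.12 at Akr1b7, and the 28 that fell (blue) reach -2.13 at Scd.

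The number of calls depended on which arrays were included. It was 409 probe sets without air replicate 1, and all 96 genes were still called there. That array resembled the ozone arrays, so leaving it out by itself favours larger differences and more calls. Smaller p-values in fits without it are therefore no separate support. The count was 49 without air replicate 2, 24 without air replicate 3, 24 without air replicate 4 and 57 without air replicate 5. It was 36 without ozone replicate 3, 32 without ozone replicate 4 and 51 without ozone replicate 5, whereas leaving out ozone replicate 1 or 2 gave 99 and 110. Leaving out air replicate 5 and ozone replicate 5 of the end of day 2, which enter through the shared spread, gave 303, and leaving out those and air replicate 1 gave 655. A fit to the 10 arrays of this harvest alone called 6, and 2 of the 96 genes were still called there, so nearly all of the calls rest on a spread estimated with the other harvests. Every one of the 96 genes kept its direction in each of these fits, which is largely fixed by their having been chosen for their difference. The genes just inside the threshold were Cuta (0.17, adjusted p = 0.047), Abhd17c (0.34, adjusted p = 0.0474) and Hdac5 (0.24, adjusted p = 0.0485), and those just outside were Nt5c3a (0.15), S1pr1 (0.55) and Fgf21 (0.76), at an adjusted p of 0.0515 each.

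In 79 of the 96 called genes (82.3%), air replicate 1 was the air array nearest to the ozone mean, against 27.0% of all genes. Its value lay inside the range of the ozone arrays in 38 of the 96 called genes, against 70.8% of all genes. That of any other air array did so in at most 2, against 57.3% to 67.0% of all genes. The ozone and air arrays did not overlap in 58 called genes, 41 that rose and 17 that fell. Over all genes the groups did not overlap in 332 (2.47%), with every ozone array above every air array in 231 (1.72%) and below in 101 (0.752%). The called genes were chosen for their difference between these same arrays, so little overlap among them is largely fixed by that choice. A total of 16 genes were called in each of the 10 fits that left out 1 array of this harvest: Akr1b7, Apcs, Cry1, Ebp, Eprs1, Fmo1, Ifi27, Lgals9, Lpar6, Mif4gd, Oas1i, Pink1, Resp18, Rprm, Tmcc3 and Zfp644. By contrast, 30 genes were called in at most 2 of those fits.

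Interferon-inducible genes made up the largest group of falls. Of 22 measured members of a list of interferon response genes, 8 fell and 0 rose, against 0.208% and 0.506% of all genes. After ozone 21 were lower, and in 11 every ozone array lay below every air array, against 0.752% of all genes. The median difference of the list was -0.39, against 0.02 over all genes. The 8 were Usp18, Oas1a, Irf7, Ifi27, Psmb8, Irf9, Oasl and Ifit3. The count of falls was 10 without air replicate 1, 3 without air replicate 3, 2 without air replicate 4, 3 without air replicate 5, 3 without ozone replicate 3, 2 without ozone replicate 4 and 3 without ozone replicate 5. It was 0 in the fit to the 10 arrays alone and 4 with the replicate number as a block, and the median over the fits that left out 1 array was -0.45 to -0.27.

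The promoters of 4 genes that fell are shown because they hold the element through which interferon signalling acts. They run from 250 bases before to 50 bases after the gene start, in RefSeq's GRCr8 assembly, 5′ to 3′ on the gene's strand. Capitals mark matches to GAAA, any 2 bases and GAAA again, a pair of half-sites of the interferon-stimulated response element, or to the reverse complement, and overlapping matches are merged. Oas1a lies at chr12:41330216-41330515 on the plus strand, Ifi27 at chr6:128355062-128355361 on the plus strand, Irf7 at chr1:205799974-205800273 on the minus strand, and Lgals9 at chr10:64428021-64428320 on the minus strand.
Oas1a: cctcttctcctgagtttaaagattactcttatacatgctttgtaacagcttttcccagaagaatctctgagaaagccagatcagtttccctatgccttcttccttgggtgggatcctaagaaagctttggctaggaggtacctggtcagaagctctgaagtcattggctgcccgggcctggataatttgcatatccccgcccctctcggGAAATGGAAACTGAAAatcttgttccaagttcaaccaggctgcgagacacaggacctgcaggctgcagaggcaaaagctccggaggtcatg
Ifi27: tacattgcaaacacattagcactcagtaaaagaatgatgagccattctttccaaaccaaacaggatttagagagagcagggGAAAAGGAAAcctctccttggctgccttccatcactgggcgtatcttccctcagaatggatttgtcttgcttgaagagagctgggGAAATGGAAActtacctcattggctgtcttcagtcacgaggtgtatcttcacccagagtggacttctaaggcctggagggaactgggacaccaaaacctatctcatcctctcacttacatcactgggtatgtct
Irf7: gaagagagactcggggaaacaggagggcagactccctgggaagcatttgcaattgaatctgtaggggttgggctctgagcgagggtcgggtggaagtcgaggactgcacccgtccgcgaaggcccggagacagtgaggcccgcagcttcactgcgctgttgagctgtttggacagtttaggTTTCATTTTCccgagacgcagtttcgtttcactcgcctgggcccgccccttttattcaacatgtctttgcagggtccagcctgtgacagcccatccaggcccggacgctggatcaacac
Lgals9: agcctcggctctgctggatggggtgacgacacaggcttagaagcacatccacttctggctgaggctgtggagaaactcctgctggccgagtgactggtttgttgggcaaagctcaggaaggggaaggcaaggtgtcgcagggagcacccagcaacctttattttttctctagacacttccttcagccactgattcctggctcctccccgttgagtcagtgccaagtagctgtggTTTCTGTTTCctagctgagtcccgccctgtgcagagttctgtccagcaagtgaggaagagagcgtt

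The element was found in 8 of the 22 promoters listed for genes that fell (36.4%) and in 0 of the 59 for genes that rose, against 363 of the 12157 promoters of measured genes (2.99%). Within the interferon list it was in 5 of the 7 promoters of members that fell (71.4%) and in 11 of the 17 of all measured members (64.7%), so members that did not pass carried it too. The 8 were Ifi27, Ifit3, Irf7, Lgals9, Oas1a, Oas1i, Psmb8 and RT1-S3. In Oas1a both matches overlap in 1 run that starts at position -41 from the gene start, and in Lgals9 the match starts at -16. A match of letters does not show that a protein binds there.

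Oas1a encodes an oligoadenylate synthetase, an antiviral enzyme that senses double-stranded RNA. Its intensities after ozone were 317, 329, 285, 216 and 228 units in replicates 1 to 5, against 365, 498, 539, 711 and 843 units after air. Every ozone array lay below every air array, and air replicate 1 was the lowest of the air arrays. The difference was -1.02 ± 0.20 (SE, adjusted p = 0.00973 by limma), a level 2.03-fold lower after ozone. The neighbouring family member Oas1i differed by -0.35 ± 0.06 (adjusted p = 0.00841). As members of 1 family these genes may be alike in sequence, so how far their probes read each other is uncertain.

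Usp18 removes the ubiquitin-like protein ISG15 from its targets and damps interferon receptor signalling. It measured 240, 196, 188, 178 and 206 units after ozone and 242, 353, 540, 506 and 870 units after air. The groups did not overlap, but air replicate 1 lay just above the highest ozone array, and the other air arrays were well above it. The difference was -1.14 ± 0.25 (adjusted p = 0.0288 by limma) with all arrays. Without air replicate 5, the brightest, it was -0.91 and no longer passed (adjusted p = 0.093), and the call was also lost without air replicate 3 or 4 or ozone replicate 3, 4 or 5.

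Irf7, the transcription factor that amplifies interferon production, measured 315, 294, 309, 297 and 265 units after ozone and 375, 403, 510, 486 and 821 units after air. The ozone arrays lay close together and below every air array, and the air arrays were spread widely. The difference was -0.73 ± 0.16 (adjusted p = 0.0288 by limma), and it was -0.55 without air replicate 5 (adjusted p = 0.0886). Irf7 was called in 4 of the 10 fits that left out 1 array, the same 4 as Usp18. Irf9, the DNA-binding subunit of the complex that carries the interferon signal, fell by 0.44 ± 0.09 (adjusted p = 0.0123), with 207 to 261 units after ozone and 296 to 385 after air.

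Ifi27, a small interferon-induced membrane protein, was the brightest of the called interferon genes. It measured 4045, 3334, 3210, 2430 and 3270 units after ozone and 3569, 5468, 5358, 5501 and 6216 units after air. Air replicate 1 fell within the ozone arrays, and the other 4 air arrays were above all of them. The difference was -0.67 ± 0.11 (adjusted p = 0.00466 by limma). It was -0.80 without air replicate 1 (adjusted p = 1.19e-05) and -0.60 without air replicate 5 (adjusted p = 0.016).

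Oasl, an oligoadenylate synthetase-like protein, fell by 0.38 (adjusted p = 0.0293) and Ifit3, an antiviral protein with tetratricopeptide repeats, fell by 0.33 (adjusted p = 0.0373). Psmb8, a catalytic subunit of the immunoproteasome that cuts peptides for antigen presentation, fell by 0.47 (adjusted p = 0.0407), and its air replicate 1 lay within the ozone range. Of the 10 fits that left out 1 array, Oasl was called in 4, Ifit3 in 2 and Psmb8 in 2. Members that missed the threshold included Mx2, an antiviral GTPase with the largest difference of the list, at -1.37 (adjusted p = 0.0578). Isg15, the ubiquitin-like modifier that Usp18 removes, differed by -0.93 (adjusted p = 0.124), with 210 to 286 units after ozone, 343 to 491 units in 4 air arrays and 1271 units in air replicate 5. Irf1 (-0.06), Ifit1 (-0.03) and the chemokine Cxcl10 (0.02) differed little.

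**Figure D2:**
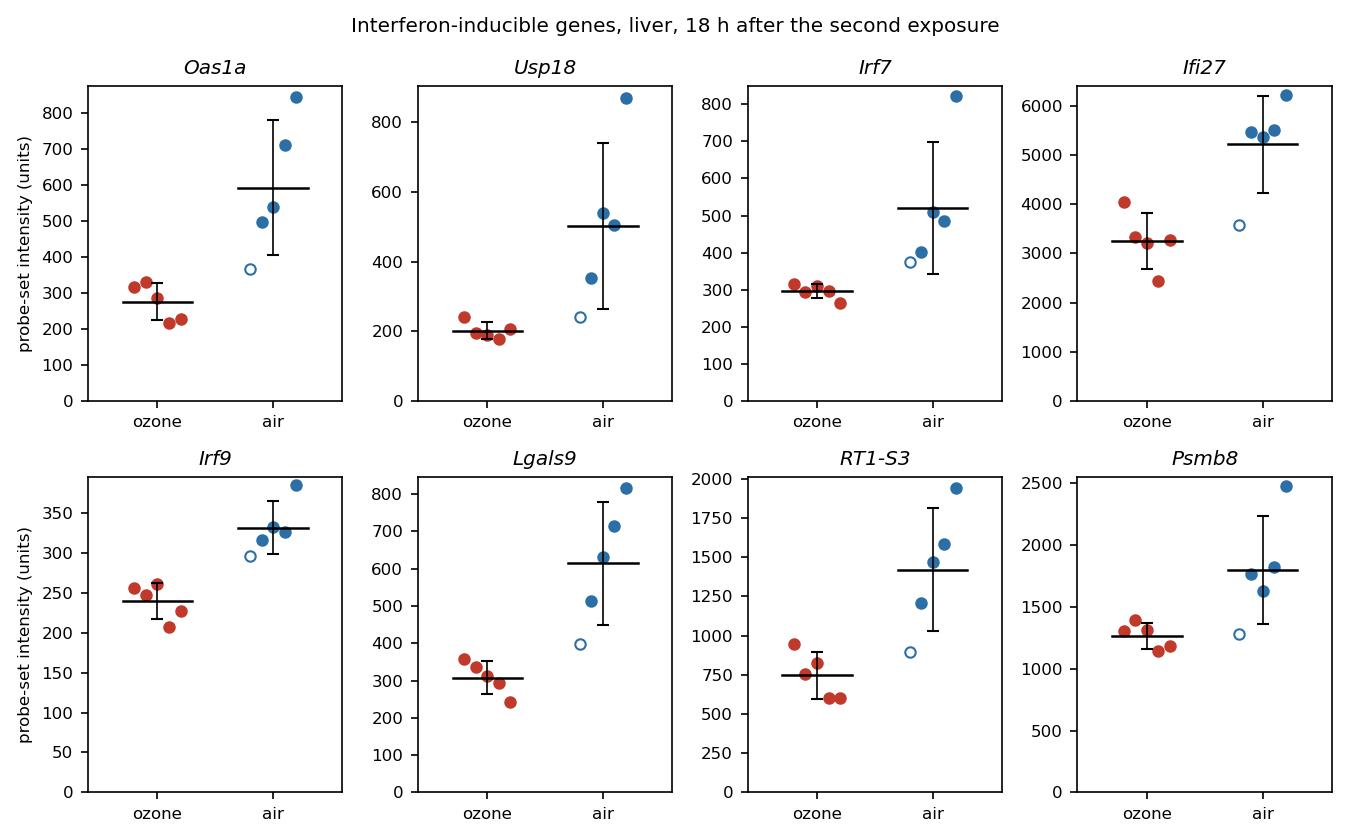
Probe-set intensity of 8 genes in each array 18 h after the second exposure, with ozone arrays in red on the left and air arrays in blue on the right, in order of replicate number. Black lines are means with SD (n = 5), and the open circle is air replicate 1, which is the lowest air array in all 8 panels.

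A few other genes that fell are described next, picked after their values were seen. Lgals9, the carbohydrate-binding protein galectin-9 that acts on T cells and macrophages, had the smallest p of all falls. It measured 358, 336, 312, 292 and 242 units after ozone and 397, 513, 632, 715 and 816 units after air. The groups did not overlap, and the difference was -0.93 ± 0.14 (adjusted p = 0.00466 by limma). RT1-S3, a class Ib gene of the rat major histocompatibility complex, fell by 0.89 ± 0.20 (adjusted p = 0.0296), though its probes may read other members of that multigene family. Slfn4, a Schlafen family member known from mouse myeloid cells, fell by 0.84 ± 0.20 (adjusted p = 0.0407), with 193 to 306 units after ozone against 351 to 754 after air. The other probe set of Slfn4 showed no fall, at 0.02. Ly6e, a membrane protein induced by interferon, fell by 0.43 (adjusted p = 0.0452). Leaving out 1 array at a time, Lgals9 was called in all 10 fits, RT1-S3 and Slfn4 in 3 each and Ly6e in 1.

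Antigen presentation genes were mostly lower without passing the test. Of 11 measured members of that list, 10 were lower, 1 fell, against 0.208% of all genes, and the median was -0.18. That gene was Psmb8, already counted in the interferon list, and it was called in 2 of the 10 fits that left out 1 array. The transporter subunit Tap1, which carries peptides into the endoplasmic reticulum, differed by -0.40 (adjusted p = 0.0521), with no overlap between the groups.

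Markers of Kupffer cells, the macrophages of the liver, were read beside the interferon genes. Their summed intensity over 9 genes was 4100 to 5308 units after ozone against 5448 to 6097 after air, with no overlap. None of the 9 passed the threshold, 8 were lower and the median was -0.24. The complement subunit C1qb, which macrophages make, measured 417 to 603 units after ozone against 585 to 678 after air (-0.35, adjusted p = 0.283). In a bulk sample, fewer cells of a type and less RNA per cell cannot be told apart, and the part of Kupffer cells in the interferon result was not tested. Neutrophil and monocyte markers summed to 1203 to 1311 units after ozone against 1290 to 1629 after air. Of these 9 genes 4 were higher and 5 lower, 0 passed and the median was -0.05. Ly6c, a monocyte surface protein, had the smallest p of them and differed by -0.50 (adjusted p = 0.068). Lymphocyte markers summed to 2180 to 2380 against 2235 to 2310 units, and hepatocyte markers to 47553 to 52333 against 49494 to 51645 units, ozone first in each.

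Scd showed the largest change of any called gene. It encodes stearoyl-CoA desaturase, which makes monounsaturated fatty acids for triglycerides and is a target of insulin and SREBF1. It measured 167, 202, 202, 191 and 183 units after ozone and 182, 1242, 932, 1100 and 2184 units after air. Air replicate 1 lay within the narrow range of the 5 ozone arrays, and the other 4 air arrays were several times brighter. The difference was -2.13 ± 0.45 (adjusted p = 0.0218 by limma), a level 4.39-fold lower after ozone. Without air replicate 1 it was -2.68 (adjusted p = 2e-04), and without air replicate 5, the brightest, it was -1.81 and did not pass (adjusted p = 0.0681). Scd was called in 4 of the 10 fits that left out 1 array, and lost without air replicate 2, 3, 4 or 5 or ozone replicate 3 or 4.

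No other gene of fatty acid synthesis passed. Of 22 measured members of the list of fatty acid and triglyceride synthesis, 1 fell and 0 rose, against 0.208% and 0.506% of all genes. The median was -0.01. Fatty acid synthase (Fasn) differed by -0.13 (adjusted p = 0.969), ATP citrate lyase (Acly) by 0.01 and the transcription factor Srebf1 by 0.61 (adjusted p = 0.298). Mfsd2a, which carries lysophosphatidylcholine into cells, fell with no overlap, with 323, 576, 382, 374 and 344 units after ozone and 617, 1894, 1197, 1057 and 823 units after air. Its difference was -1.38 ± 0.29 (adjusted p = 0.0222), a level 2.59-fold lower after ozone, and the call was lost without air replicate 2, 3 or 4 or ozone replicate 3, 4 or 5. Enpp2, the secreted enzyme autotaxin that makes lysophosphatidic acid, fell by 0.58 ± 0.12 (adjusted p = 0.0187), with 1335 to 1812 units after ozone against 1915 to 2791 after air. Lpar6, a receptor for lysophosphatidic acid, rose by 0.69 ± 0.12 (adjusted p = 0.00466), with 580 to 756 units after ozone against 331 to 586 after air, air replicate 1 being the highest of these.

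Ebp, the sterol isomerase of cholesterol synthesis, rose. It measured 1791, 1865, 1977, 1945 and 1973 units after ozone and 1401, 1327, 1467, 1276 and 1668 units after air. No array overlapped, and the difference was 0.42 ± 0.07 (adjusted p = 0.00466 by limma). Ebp was not in the list of cholesterol synthesis genes, of whose 17 measured members 15 were higher after ozone and 0 passed, with a median of 0.15. Without air replicate 5 the median was 0.29 and 2 members rose, among them Fdps (0.67, adjusted p = 0.0183). With all arrays the farnesyl diphosphate synthase Fdps came nearest, with 2349 to 3252 units after ozone and 1495 to 1894 in 4 air arrays, but 3203 in air replicate 5 (0.49, adjusted p = 0.137). Air replicate 5 was the brightest air array for Fdps, Cyp51 and Sqle too. The sterol regulatory element core (TCACNCCAC, both strands) was in 0 of 14 promoters of that list, against 1.08% of promoters of measured genes. At so low a share 0 of 14 is the likely count, so it does not show that these genes lack the element. The CCAAT box was in 12 of 14 (85.7%), against 36.9%. As 0 members of the list passed, neither count bears on the ozone effect.

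Among xenobiotic enzymes, Fmo1 and Cyp1a1 fell. Fmo1, a flavin monooxygenase that oxidises drugs with nitrogen or sulphur, measured 566, 542, 597, 559 and 719 units after ozone and 735, 971, 1058, 1209 and 925 units after air. The groups did not overlap, and the difference was -0.69 ± 0.12 (adjusted p = 0.0054 by limma). Cyp1a1, the cytochrome P450 induced through the aryl hydrocarbon receptor, measured 168, 207, 164, 171 and 207 units after ozone and 172, 399, 253, 352 and 297 units after air (-0.60 ± 0.14, adjusted p = 0.045). Only air replicate 1 lay within the ozone range, and without it the difference was -0.76 (adjusted p = 0.000803). Without air replicate 5 it was -0.58 and did not pass (adjusted p = 0.103), and Cyp1a1 was called in 2 of the 10 fits that left out 1 array, with a highest adjusted p of 0.181. Its relative Cyp1a2, under the same receptor, differed by -0.41 (adjusted p = 0.0658). Of 19 measured xenobiotic genes, 14 were lower and 2 fell, against 0.208% of all genes, and 0 rose, against 0.506%, with a median of -0.16.

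Of 19 glucocorticoid-responsive genes, 16 were lower and 1 fell, against 0.208% of all genes. That gene was Klf9, a zinc finger factor induced directly by glucocorticoid and thyroid hormone receptors. It measured 1470, 2078, 1815, 1619 and 2015 units after ozone and 1924, 3087, 2455, 3017 and 2401 units after air, with air replicate 1 inside the ozone range (-0.51 ± 0.12, adjusted p = 0.0324 by limma). Klf9 was called in 3 of the 10 fits that left out 1 array. The list had a median of -0.18, with 4 falls without air replicate 1, 3 without ozone replicate 2, 1 without ozone replicate 5 and 0 without any other array, and medians of -0.31 (without ozone replicate 3) to -0.13 (without air replicate 2). Tat, tyrosine aminotransferase, did not overlap between the groups, with 556 to 1302 units after ozone and 1382 to 2530 after air, but missed the threshold (-0.89, adjusted p = 0.096). Errfi1 (-0.36, adjusted p = 0.06) and Cebpb (-0.70, adjusted p = 0.073) came close as well.

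Amino acid breakdown genes were also mostly lower, without a call. Of 22 measured members, 17 were lower, 0 passed and the median was -0.13. In 4 of the 22 every ozone array lay below every air array, against 0.752% of all genes. Tat was 1 of them, as were the serine dehydratase Sds (-1.18, adjusted p = 0.165) and the aspartate aminotransferase Got1 (-0.93, adjusted p = 0.286). The last was the urea cycle enzyme Ass1 (-0.27, adjusted p = 0.14). Got1 measured 607 to 775 units after ozone against 899 to 1647 after air. The metallothionein Mt2A, a zinc-binding protein, missed the threshold with all arrays (-0.85, adjusted p = 0.0826), with 1795 to 4062 units after ozone, 1820 in air replicate 1 and 4227 to 8181 in the other air arrays. Without air replicate 1 it was -1.19 and passed (adjusted p = 2e-04). Without air replicate 5 it was -0.89 (adjusted p = 0.12), and over the 10 fits that left out 1 array it ranged from -1.19 to -0.65.

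Akr1b7 was the largest rise. It belongs to the aldose reductase family and reduces aldehydes, among them products of lipid peroxidation. It measured 372, 296, 489, 499 and 240 units after ozone and 124, 165, 172, 146 and 203 units after air. Every ozone array was above every air array, with the narrowest gap between ozone replicate 5 and air replicate 5, and air replicate 1 was the lowest. The difference was 1.12 ± 0.20 (adjusted p = 0.0054 by limma), a level 2.17-fold higher after ozone. At the end of day 2 it measured 167 ± 57.8 units after ozone and 157 ± 21.0 after air (SD, n = 5 each).

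Prlr, the prolactin receptor and a gene under growth hormone control in rat liver, measured 1290, 1070, 1171, 1075 and 1109 units after ozone and 663, 817, 710, 621 and 698 units after air. The groups did not overlap, and air replicate 1 stood with the other air arrays. The difference was 0.69 ± 0.16 (adjusted p = 0.0363 by limma). Of the 10 fits that left out 1 array, Prlr was called only in that without air replicate 1, and its highest adjusted p was 0.129. Among 19 measured growth hormone and STAT5 targets, Prlr and the plasma protein gene A1bg (0.21 ± 0.05, adjusted p = 0.0452) rose and 0 fell, with a median of 0.01. Of all genes, 0.506% rose and 0.208% fell. The male-specific Cyp2c11 differed by -0.16 (adjusted p = 0.294) and Igf1, the growth factor made on growth hormone signals, by 0.08.

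Cry1, a repressor in the circadian clock, measured 315, 273, 321, 331 and 334 units after ozone and 300, 199, 194, 188 and 168 units after air. Air replicate 1 lay within the ozone range, and the other 4 air arrays were below all ozone arrays. The difference was 0.58 ± 0.09 (adjusted p = 0.00466 by limma). Without air replicate 1 it was 0.70 (adjusted p = 1.52e-06) and without air replicate 5 it was 0.51 (adjusted p = 0.016). Cry1 was the 1 call among 16 clock genes, against 0.714% of all genes, and the list's median was 0.00. Per2 (0.52, adjusted p = 0.0963) and Nfil3 (0.45, adjusted p = 0.389) were the next highest, and Dbp (-0.23) and Hlf (-0.30) were lower without passing.

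Plasma protein and iron genes gave single rises. Apcs, the pentraxin serum amyloid P, measured 6460, 6214, 6780, 6362 and 6565 units after ozone and 5787, 5757, 5181, 5394 and 5130 units after air, with no overlap (0.25 ± 0.04, adjusted p = 0.00466 by limma). It was the 1 call among 27 acute phase genes, against 0.714% of all genes, and 12 of the list were higher and 15 lower. C8a, a chain of the terminal complement complex, rose by 0.36 (adjusted p = 0.0265). It was the 1 call among 16 complement and coagulation genes, against 0.714% of all genes. Hjv, hemojuvelin, the coreceptor that sets hepcidin output, rose by 0.61 ± 0.15 (adjusted p = 0.0395), with 1401 to 1575 units after ozone against 651 to 1092 in 4 air arrays and 1422 in air replicate 1. Leaving out 1 array at a time, C8a was called in 4 of 10 fits and Hjv in 1, that without air replicate 1. Hepcidin itself (Hamp) differed by 0.02.

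**Figure D3:**
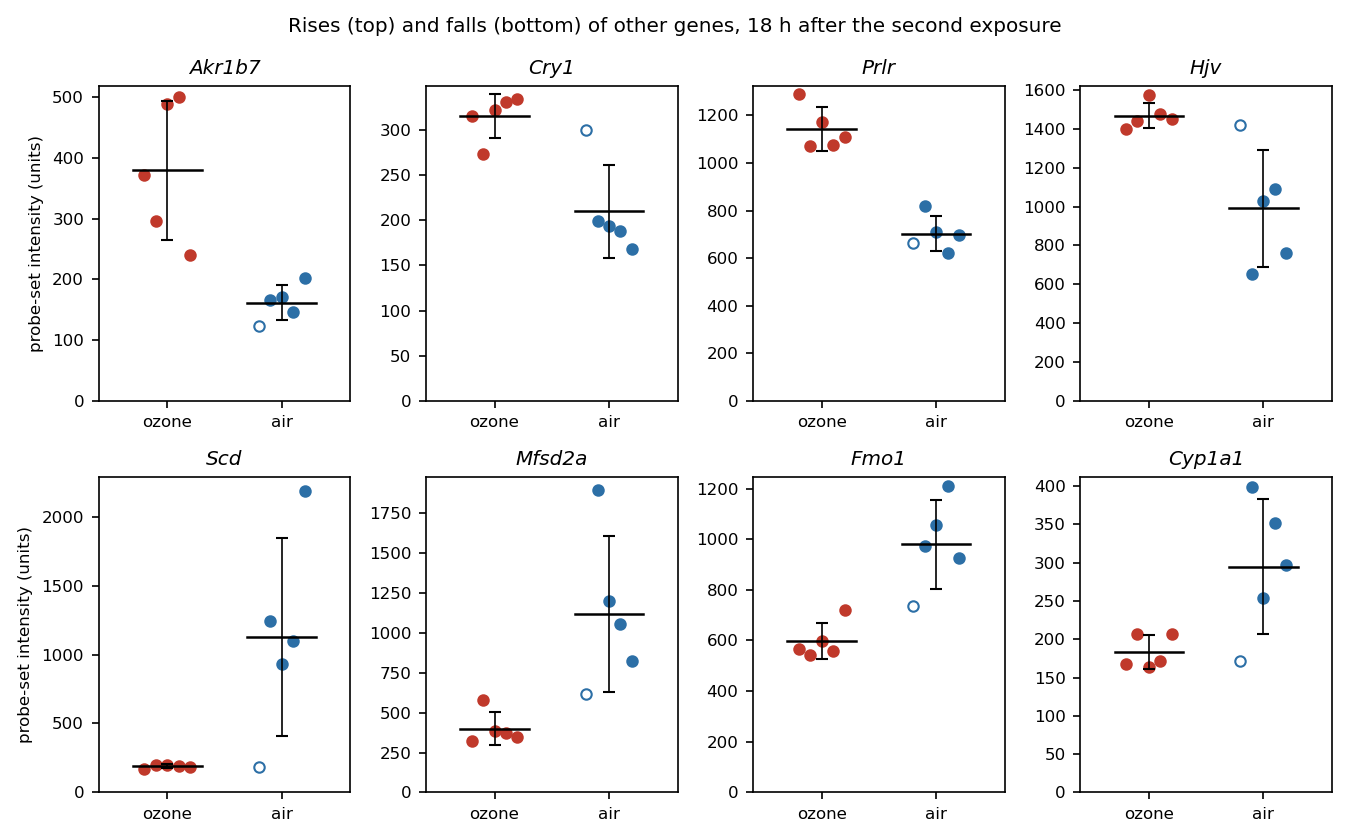
Probe-set intensity of 4 genes that rose (top row) and 4 that fell (bottom row) in each array 18 h after the second exposure, with ozone in red on the left and air in blue on the right. Lines are means with SD (n = 5), and the open circle, air replicate 1, lies within the ozone range for Cry1, Hjv, Scd and Cyp1a1.

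The remaining large rises were Id2, an inhibitor of basic helix-loop-helix factors (0.73 ± 0.16, adjusted p = 0.0294), the nuclear receptor corepressor Trim24 (0.71 ± 0.15, adjusted p = 0.0193) and the endoplasmic reticulum protein gene Tmcc3 (0.68 ± 0.12, adjusted p = 0.00841). The cell-surface proteoglycan Sdc1 (0.52), the calcineurin regulator Rcan2 (0.50), the lipid transfer protein gene Prelid2 (0.53), the deubiquitinase Usp3 (0.42), the noncoding RNA Gas5 (0.43) and the secreted protein genes Albfm1 (0.48) and Apon (0.42) rose as well. Their adjusted p lay between 0.00973 and 0.0407 by limma. Where these rises had another probe set, it differed by 0.09 for Gas5, 0.20 for Tmcc3, 0.35 for Rcan2 and 0.43 for Sdc1. Leaving out 1 array at a time, Tmcc3 was called in all 10 fits, Albfm1 in 9, Sdc1 in 8, Apon in 6, Trim24 in 5, Usp3 in 3, Id2, Gas5 and Prelid2 in 2 each and Rcan2 in 1. Among these 10, air replicate 1 was the highest air array throughout, and the groups did not overlap for Tmcc3, Albfm1 and Apon. Srsf4, a splicing factor, fell by 0.45 (adjusted p = 0.0288) with no overlap. Pink1, the kinase that marks damaged mitochondria, rose by 0.39 (adjusted p = 0.0123), and Eprs1, the glutamyl-prolyl-tRNA synthetase, fell by 0.38 (adjusted p = 0.00848).

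Genes of oxidant defence, stress and growth showed few calls. None of 20 NRF2 target and glutathione genes passed, and 10 were higher and 10 lower. Nfe2l2, which encodes NRF2, the sensor-controlled activator of antioxidant genes, was higher without overlap, at 732 to 974 units after ozone and 480 to 702 after air (0.52 ± 0.14, adjusted p = 0.0644). In that list 1 member had every ozone array above every air array (1.72% of all genes), and 1 had every one below (0.752%). The hormone Fgf21, secreted by the liver in fasting and stress, measured 206 to 542 units after ozone against 149 to 204 after air (0.76 ± 0.19, adjusted p = 0.0515), also without overlap. Among 18 heat shock and unfolded protein genes 15 were higher, and among 17 genes of the integrated stress response 14 were higher, with 0 calls in either and medians of 0.07 and 0.10.

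Immediate early genes, which respond within minutes to many stimuli, varied widely among arrays of 1 group. Of 14, 10 were higher and 0 passed, with a median of 0.28. That median was 0.02 without ozone replicate 2, 0.17 without air replicate 1 and 0.46 without air replicate 2, and 1 gene was called without ozone replicate 1. Ozone replicate 2 was the brightest array for Atf3 (2502 units), Jun (3683 units), Egr1 (2990 units) and Fosb (706 units), where the other ozone arrays read at most 398, 2131, 530 and 139 units. Air replicate 2 was the brightest air array for Egr1 (868 units) and Jun (2021 units). The neutrophil-attracting chemokine Cxcl1 measured 1122 units in ozone replicate 2 and 3656 in air replicate 2, against 145 to 226 in the other ozone arrays and 153 to 178 in the other air arrays.

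Gluconeogenesis (15 genes), glycolysis (11), fatty acid oxidation (18), bile acids (19), metallothioneins and zinc (7), cell cycle (24), p53 targets (13), oxidative phosphorylation (19), ribosomal proteins (10), chemokines and adhesion (16) and lipoproteins and lipases (19) had 0 calls each. Their medians lay between -0.08 and 0.05. Of other cell type markers, Cela1, a pancreatic elastase, fell by 0.41 (adjusted p = 0.0222). Its air replicate 1 read 962 units against 1318 to 1403 in the other air arrays. It was the 1 fall among 13 pancreas and adipose tissue markers, against 0.208% of all genes, and 6 were higher and 7 lower. Stab2, a scavenger receptor of sinusoidal endothelium, rose by 0.28 (adjusted p = 0.0439). It was the 1 rise among 10 endothelial markers, against 0.506% of all genes, and 6 were higher and 4 lower. The endothelial markers summed to 3567 to 4300 units after ozone and 3622 to 4207 after air. Leaving out 1 array at a time, Cela1 was called in 4 of 10 fits and Stab2 in 2. Stellate cell, cholangiocyte, erythroid and lymphocyte markers had 0 calls.

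**Figure D4:**
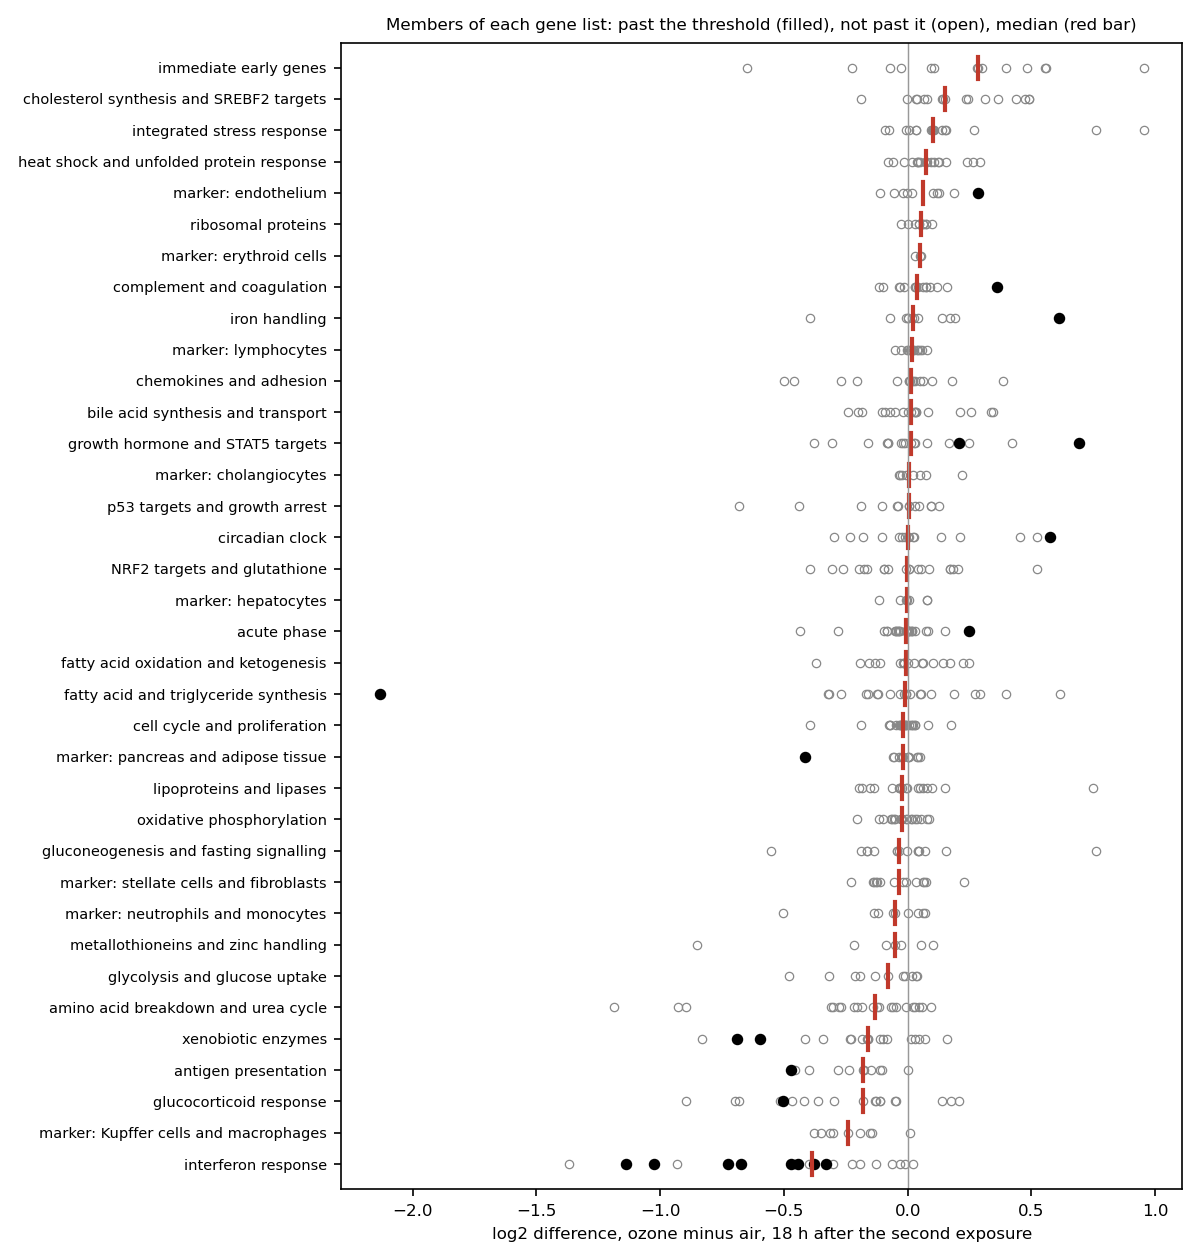
Each row is 1 of 36 gene lists and each point a measured member, placed by its log2 difference of ozone minus air at 18 h on the x axis, with called genes filled and the median as a red bar. The interferon list, at the bottom, has 8 filled points and a median of -0.39, and no other list has more than 2.

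The 96 genes were also followed at the other harvests, whose arrays are separate but shared the estimate of spread. At the end of day 2, 22 genes were called (0.164%), 4 of them among the 96. The direction was the same as at 18 h in 81 of the 96 (84.4%, against 53.2% of all genes), including 58 of the 68 rises and 23 of the 28 falls. Across all 13438 genes, which are not independent, the differences at both harvests correlated at 0.239 (Pearson) and 0.147 (Spearman). Scd differed by -2.27 at the end of day 2 (adjusted p = 0.0295), Usp18 by -0.94, Slfn4 by -0.88, RT1-S3 by -0.78 and Oas1a by -0.67. Akr1b7 differed by 0.04, Mfsd2a by 0.09 and Fmo1 by 0.16 at the end of day 2, and with all arrays their effects at both harvests did not differ past the threshold (adjusted p = 0.337, 0.362 and 0.175).

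No gene passed limma's test of a difference between its effects at 18 h and at the end of day 2 (0%). The unadjusted p of that test was under 0.05 in 1028 genes. The lack of calls depended on 2 arrays and on how arrays were weighted. With array weights and every array kept, 992 probe sets differed. Without air replicate 5 and ozone replicate 5 of the end of day 2, 852 differed. With only that air array left out the count was 183, and with only that ozone array left out it was 89. In the fit without both arrays, 1324 genes were called at the end of day 2. Of the 96 genes, 72 (75%, against 56.0% of all genes) then had the same direction at both harvests, 29 were called in the same direction at both, and 22 differed between them. Mfsd2a (difference of effects -1.94, adjusted p = 0.000606), Fmo1 (-0.90, adjusted p = 0.0011), Ebp (0.49, adjusted p = 0.0036) and Akr1b7 (1.05, adjusted p = 0.0366) were among the 22. In the same fit Usp18 fell on day 2 by 1.17 (adjusted p = 0.00232) and Oas1a by 0.91 (adjusted p = 0.00179). Irf7 fell by 0.74 (adjusted p = 0.00494), Ifi27 by 0.43 (adjusted p = 0.0162) and Scd by 2.51 (adjusted p = 0.000157). With all arrays the day 2 adjusted p was 0.083 for Usp18, 0.104 for Oas1a, 0.078 for Irf7 and 0.117 for Ifi27. Of these genes, only Scd passed there with all arrays (adjusted p = 0.0295). The 2 arrays were left out for resembling other groups, which by itself favours more calls, so this fit is no separate support.

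At the end of day 1 many more genes were called. There 3295 genes were called (24.5%), and 1329 of them (40.3%) had the same direction at 18 h, against 51.2% of all genes. Of the 96, 38 (39.6%) had the direction of day 1, and 34 were also called on day 1, 11 in the same direction and 23 in the opposite one. The effect at 18 h differed from that on day 1 in 2198 genes (16.4%), 1330 of them higher at 18 h (9.9%) and 868 lower (6.46%).

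Genes of amino acid breakdown and antioxidant defence were among those that differed. Got1 stood at a log2 difference of 2.25 on day 1, 0.75 at the end of day 2 and -0.93 at 18 h. Sds stood at 1.89, 0.19 and -1.18 at the same harvests. In the other direction, Osgin1, an oxidative stress-induced growth inhibitor, stood at -1.56 on day 1, -0.06 at the end of day 2 and 1.08 at 18 h, and the glutathione synthesis subunit Gclm at -1.73, -0.25 and 0.17. For Osgin1 and Got1 the 18 h groups did not overlap, although their differences at 18 h missed the threshold (adjusted p = 0.124 and 0.286).

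Mfsd2a and Lgals9 were called in opposite directions on day 1 and at 18 h. Mfsd2a measured 1853 ± 311 units after ozone and 936 ± 285 after air on day 1 (SD, n = 6 each), and 400.0 ± 101 against 1117 ± 487 units at 18 h (SD, n = 5 each). Lgals9 measured 934 ± 106 and 607 ± 63.4 units on day 1, and 308 ± 44.6 and 614.5 ± 165 units at 18 h. Cholesterol synthesis genes had medians of -0.33 on day 1, -0.23 at the end of day 2 and 0.15 at 18 h, with 9 of 17 called lower on day 1. The interferon list had medians of -0.28, -0.28 and -0.39 at the same harvests, with 11, 1 and 8 of 22 called lower. Of all genes, 24.5% were called, higher or lower, on day 1, 0.164% at the end of day 2 and 0.714% at 18 h.

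**Figure D5:**
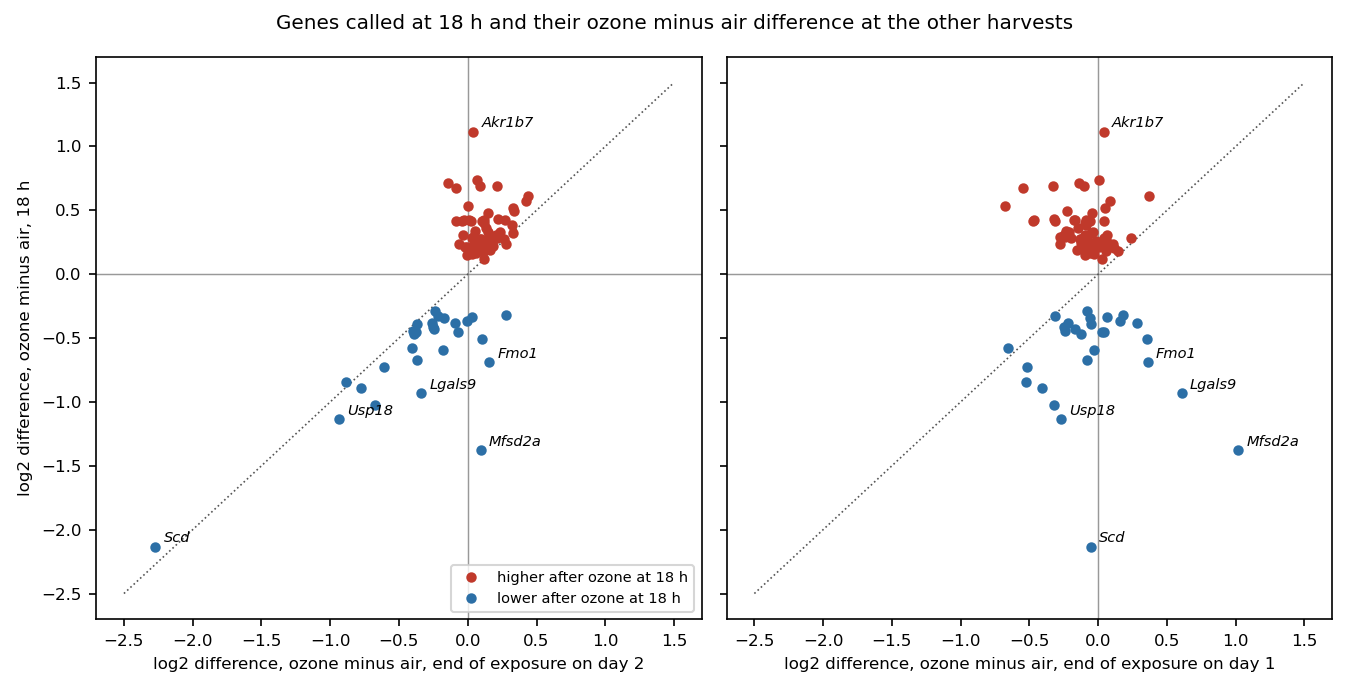
Each point is 1 of the 96 called genes, with its log2 difference of ozone minus air at 18 h on the y axis and at the end of exposure on day 2 (left panel) or day 1 (right panel) on the x axis. The dotted line marks equal differences, and 81 genes on the left and 38 on the right lie in quadrants of equal sign.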

How the data were processed

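Liver RNA of 32 samples was hybridised to single-colour arrays. The deposited values are intensities on a linear scale (30.5 to 15558 units), which the authors computed, per the submitters' processing notes, by the PLIER method of Affymetrix Expression Console. Its version, background correction and the scan batches are not stated in the labels. Of 31139 probe sets, 97 controls, 11407 without a gene and 572 with several were left out. Values were taken as log2(intensity + 16) and fitted with limma 3.58.1 in R 4.3.3 over all 6 groups (26 residual degrees of freedom, eBayes with trend, Benjamini-Hochberg threshold 0.05), after the script was tested on simulated data. Tables and figures used matplotlib 3.10.9 with numpy 2.4.6 and pandas 2.3.3 under Python 3.11.15. Gene names are those of the platform annotation, and 18983 probe sets matched RefSeq with 0 differing symbols.

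Named genes were the 15 largest called rises and 15 largest called falls, up to 4 called members of each of 36 lists or else the member of smallest p, and the 5 largest differences in each direction from the other harvests. Other genes were named after their values were seen. The groups, lists and rule were chosen with earlier results of these data known. Alternatives were other offsets, a filter on dim probe sets, other scalings, array weights, a replicate block, each array left out and sets of arrays left out.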

Additional observations from a re-analysis of the deposited data

Results flagged for a closer look

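Among the 67 named genes, 13 of 134 group values at 18 h had 1 array far from the other 4 of its group, by Dixon's test, which by chance picks out about 1 in 20 groups. Ozone replicate 2 was high for Mfsd2a (576 units) and Cxcl1 (1122 units) and low for Apon (1930 units) and Cry1 (273 units). Ozone replicate 1 was low for Gas5 (731 units), and ozone replicate 5 was low for Id2 (1250.1 units) and Trim24 (211 units). Air replicate 1 was low for Ifi27 (3569 units) and Cela1 (962 units) and high for Cry1 (299.8 units) and Rcan2 (389 units). Air replicate 2 was high for Cxcl1 (3656 units), and air replicate 5 was low for Fgf21 (149 units).

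For 45 named genes limma's test of the difference found an ozone effect at 18 h that differed from that at the end of day 1, with adjusted p from 1.03e-05 to 0.0476. The values are the log2 effect at 18 h minus that on day 1, and a gene called at 18 h had its 18 h arrays used in being chosen. The effect at 18 h was higher for A1bg (0.23), Akr1b7 (1.08), Albfm1 (0.52), Apcs (0.21), Apon (0.51), C8a (0.51), Cry1 (0.49), Epcam (0.53), Fdps (0.83), Gas5 (0.75), Gclm (1.90), Hsd17b2 (1.99), Id2 (0.73), Jund (0.72), Lpar6 (1.02), Nfe2l2 (1.05), Nrep (2.33), Osgin1 (2.64), Pdia4 (0.56), Prelid2 (1.21), Prlr (0.79), Rcan2 (0.72), Rgs3 (2.05), Rpl7 (0.19), Sdc1 (0.47), Stab2 (0.48), Tmcc3 (1.23), Trim24 (0.86), Usp3 (0.89). It was lower for Cxcl1 (-3.27), Cyp1a1 (-0.57), Fmo1 (-1.05), Gadd45b (-1.94), Got1 (-3.17), Ifi27 (-0.59), Klf9 (-0.86), Lgals9 (-1.54), Mfsd2a (-2.39), Mt2A (-1.54), Ndufs1 (-0.45), Pfkfb1 (-1.30), Scd (-2.08), Sds (-3.08), Srsf4 (-0.48), Tat (-1.37). With all arrays, 0 named genes passed limma's test of a difference from the effect at the end of day 2.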

How the results depend on the processing

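The count of probe sets called between ozone and air at 18 h was 120 and ranged from 24 to 409 when 1 array was left out. It was 610 with array weights and 6 in the fit to the 10 arrays alone. It was 335 without air replicates 1 and 5, 303 without air and ozone replicate 5 of the end of day 2, and 655 without those and air replicate 1, settings chosen after seeing the data. The count that differed from the end of day 2 was 0, and 0 to 183 when 1 array was left out. It was 1 with dim probe sets left out, 1 with the brightest of the remaining ones per gene, 1 with median centring and 992 with array weights. Without the same sets of arrays it was 79, 852 and 986. The cause was not tested. The count that differed from day 1 was 2776, and 2375 to 2855 when 1 array was left out, within 1.5 times throughout. Cxcl1 (-0.27, adjusted p = 0.973 by limma) changed sign with array weights (0.060, adjusted p = 0.973) and without air replicate 2 (0.60, adjusted p = 0.791), and ranged from -0.78 to 0.60 when 1 array was left out. With the replicate number as a block, 97 probe sets were called at 18 h, 0 differed from day 2 and 2515 from day 1. In that fit 70 of the 96 genes were still called. Same-numbered arrays at 18 h correlated at -0.371 to 0.241, and 1 of 5 ozone arrays lay closest to its own number. With so few pairs this cannot exclude a block that the labels do not name. Quantile normalization gave 82 higher and 83 lower, against 78 and 42 without it. Signal near the nonspecific controls limits what could be seen for dim genes.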
